A study of Mus musculus with 6 samples.

Results

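Expression of 10 genes that mark regulatory T cells or encode immune checkpoint receptors was compared in whole lungs of 3 TNF+ and 3 TNF- mice. They were taken by symbol from the deposited count table, which lists 49568 gene symbols, and all 10 were found there. By role they are the transcription factors Foxp3 and Ikzf2, the interleukin-2 receptor chain Il2ra, the costimulator Icos, the inhibitory receptors Ctla4, Pdcd1, Tigit, Lag3 and Havcr2, and the cytokine Il10. TNF+ mice (labelled TNF-Tg) carried a single copy of the human gene for tumor necrosis factor, and TNF- mice (labelled WT) were their wildtype littermates. What drives the transgene is not given in the sources used here. All animals were females bred on the C57BL/6 background, aged 4 months, and each gave one poly(A) library of lung RNA.

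Regulatory T cells are CD4 T cells that restrain other lymphocytes, and Foxp3 is the factor that fixes their identity. They carry the high-affinity interleukin-2 receptor and the receptor Ctla4, which takes Cd80 and Cd86 away from the activating receptor Cd28, and some release interleukin-10. Checkpoint receptors such as Pdcd1, Tigit, Lag3 and Havcr2 also appear on activated and exhausted effector T cells. Several of these genes are shared with other cells of the lung, since macrophages and dendritic cells can express Havcr2 and Il10, and natural killer cells can express Lag3 and Tigit.

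Libraries held between 25396923 and 32529408 counts, so that 3 counts, taken as the floor of detection, stood at 0.0922 to 0.118 CPM, a limit that covers counting error only. For this floor and for the filter on low counts, CPM scales a count by its library total. Other CPM values here use the library total after TMM scaling. The labels give no batch. Of 8 lung markers 7 were lower in TNF+ lungs, against 23.4% of all tested genes called lower, with sums of 17400 to 22500 CPM against 35200 to 42000 CPM. The Tnf row of the mouse table was higher in TNF+ lungs (log2 fold change 3.62, SE 0.46, adjusted p = 0.000471 with edgeR), and whether reads of the human transgene fall in it was not tested. Certain libraries stood apart. In TNF+ replicate 1 the single gene Gm42418 took 5.22% of the counts against at most 0.274% elsewhere, and TNF- replicate 1 held 3440 CPM of 6 squamous epithelium markers against at most 2.76 in any other lung, and 1840 CPM of 6 skeletal muscle markers against at most 45.1.

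Of the 10 genes, 5 lie on chromosome 1. The sequences before the start site are shown for 5 of the genes with an entry, Foxp3, Il2ra and 3 inhibitory receptors, because 9 of the 10 genes moved in one direction. They hold the 250 bases in front of the RefSeq start on GRCm38.p6, written in the direction of the gene, with matches to any searched motif in capitals. The motifs, counted on both strands, were the NFAT core GGAAA, AP-1 TGANTCA, STAT TTCNNNGAA, NF-kB (GGG and CC with 5 bases between) and RUNX TGTGGT.
Foxp3, chrX:7579426-7579675, plus strand: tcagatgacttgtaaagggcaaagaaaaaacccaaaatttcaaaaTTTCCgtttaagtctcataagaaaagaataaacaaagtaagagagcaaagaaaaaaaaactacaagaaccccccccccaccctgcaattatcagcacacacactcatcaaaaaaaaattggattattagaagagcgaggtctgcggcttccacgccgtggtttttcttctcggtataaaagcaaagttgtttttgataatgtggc
Il2ra, chr2:11642542-11642791, plus strand: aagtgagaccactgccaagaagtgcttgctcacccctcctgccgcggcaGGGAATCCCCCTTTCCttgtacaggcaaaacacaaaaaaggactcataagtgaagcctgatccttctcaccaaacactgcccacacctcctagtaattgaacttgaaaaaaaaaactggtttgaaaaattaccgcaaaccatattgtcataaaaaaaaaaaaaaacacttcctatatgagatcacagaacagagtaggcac
Ctla4, chr1:60908775-60909024, plus strand: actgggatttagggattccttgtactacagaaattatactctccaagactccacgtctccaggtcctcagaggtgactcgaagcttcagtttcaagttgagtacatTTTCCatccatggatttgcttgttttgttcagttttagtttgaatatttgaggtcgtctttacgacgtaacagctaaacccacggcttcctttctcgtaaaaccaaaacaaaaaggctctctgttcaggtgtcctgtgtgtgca
Tigit, chr16:43664185-43664434, minus strand: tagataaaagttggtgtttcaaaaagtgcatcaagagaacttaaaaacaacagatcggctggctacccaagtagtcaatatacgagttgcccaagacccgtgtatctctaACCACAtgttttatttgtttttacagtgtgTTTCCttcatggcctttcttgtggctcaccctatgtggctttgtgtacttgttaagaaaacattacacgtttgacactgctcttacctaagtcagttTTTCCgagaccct
Havcr2, chr11:46454681-46454930, plus strand: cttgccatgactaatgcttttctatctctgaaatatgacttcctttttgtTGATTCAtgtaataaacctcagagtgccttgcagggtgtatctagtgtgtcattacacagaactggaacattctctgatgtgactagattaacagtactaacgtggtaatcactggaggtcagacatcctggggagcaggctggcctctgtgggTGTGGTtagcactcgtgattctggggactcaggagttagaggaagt
The table of promoters matched 6 of the 10 genes, Pdcd1 being the sixth, and a second Foxp3 start was also searched. The NFAT core was found in 5 of the 6 genes and in 55.7% of 32536 promoters of that length. Havcr2 was the gene without it, and the only 1 of the 6 with an AP-1 match, which 6.73% of promoters hold. Il2ra alone held the NF-kB letters, in a pair of overlapping matches next to its NFAT core, against 46.0% of promoters. RUNX letters stood before Tigit and Havcr2 (14.0% of promoters). STAT letters stood before the second Foxp3 start, where they overlap the NFAT core (7.04% of promoters). For Il2ra, Tigit and Havcr2 the RefSeq start is not the start of a GENCODE M21 transcript. A match describes letters only, not a bound site.

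Of the 10 genes, 9 were higher in TNF+ lungs and none was lower, at an adjusted p under 0.05 in edgeR's quasi-likelihood test. One of the 9, Il10, entered the test only through its TNF+ counts, and without it 8 of 9 were called. The filter asked for 0.325 CPM in 3 lungs, which Ctla4 and Pdcd1 reached in all TNF+ and in 2 of 3 TNF- lungs, and both were also called when 10 counts in every lung were asked for (adjusted p = 0.0184 and 0.00568). The fitted changes of these 8 were largest for Ctla4, Tigit, Lag3, Foxp3 and Pdcd1, and Ikzf2 did not pass. Among all 19199 genes tested, 24.0% were called higher and 23.4% lower, 47.4% in all. The same 9 genes had a log2 fold change of at least 1, against 10.3% of all tested genes that were called higher with such a change. DESeq2 called all 10 higher, against 19.5% of its genes, and a fit with the replicate number as a block called 7, against 19.9%. The median log2 fold change of the 10 genes was 2.00 (1.95 without Il10), against 0.03 over all tested genes. In 9 of the 10 genes (8 of 9 without Il10) the lowest TNF+ value exceeded the highest TNF- value. This pattern held for 30.5% of all tested genes, and 28.2% had the opposite one. In whole tissue, more (or fewer) cells of a type and more (or less) RNA per cell cannot be told apart. Without both first replicates, the libraries that stand apart, 6 genes stayed called and Ctla4, Icos and Il2ra did not (log2 fold changes 1.14, 0.65 and 0.81, adjusted p = 0.0927, 0.253 and 0.0728), with 2 lungs per group.

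**Figure D1:**
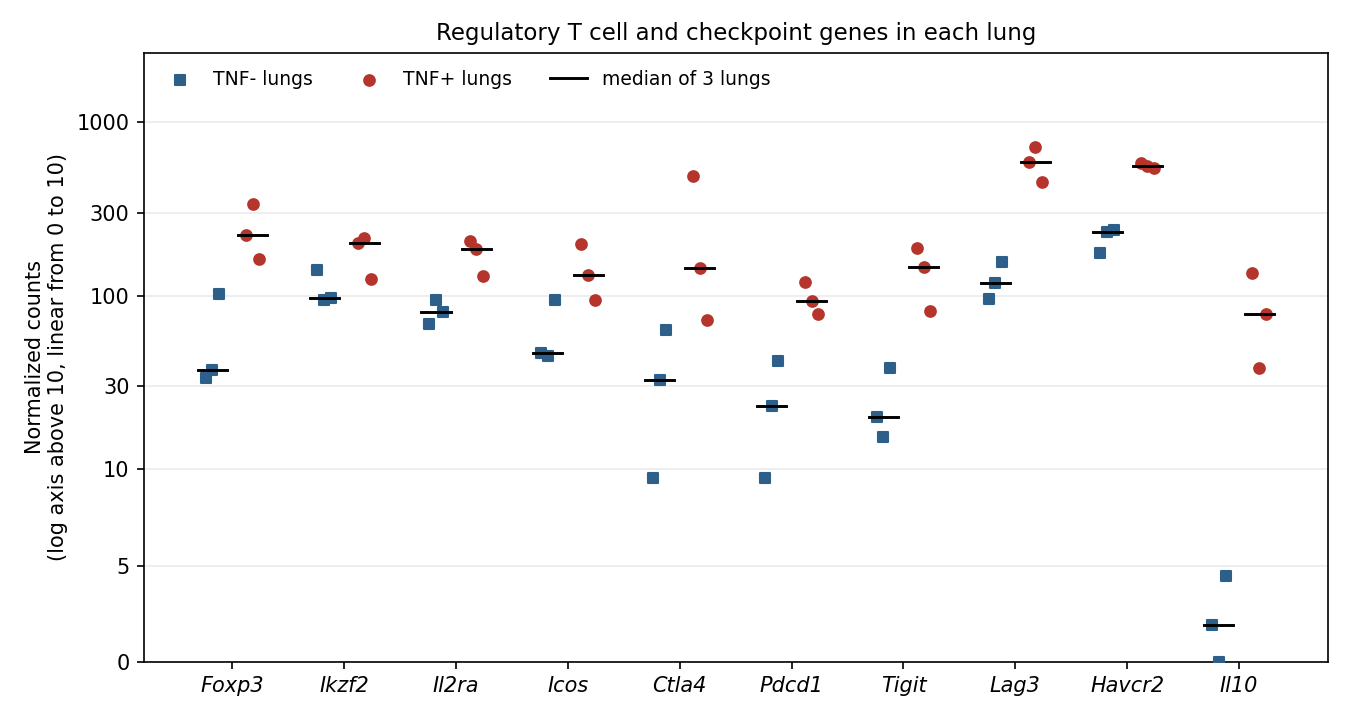
Normalized counts (y axis, logarithmic above 10 and linear from 0 to 10) of the 10 genes in each of 3 TNF- lungs (blue squares) and 3 TNF+ lungs (red circles), in order of replicate from left to right, with the median of each group as a black bar. Only Ikzf2 overlaps between the groups, Icos nearly does, and Il10 is close to 0 in all TNF- lungs.

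Foxp3 (ENSMUSG00000039521.13, chromosome X of GRCm38, 7573644 to 7595245) had 223, 337 and 163 normalized counts in TNF+ lungs 1 to 3 and 33.5, 37.4 and 102 in TNF- lungs 1 to 3. Here a normalized count is a count put on the scale of an average library after TMM scaling. All TNF+ lungs were above all TNF- lungs, but TNF- replicate 3 stood well above the other TNF- lungs. The log2 fold change was 2.06 (SE 0.46, adjusted p = 0.0071 with edgeR), a 4.16-fold difference. When single lungs were omitted the log2 value lay between 1.74 and 2.76, with adjusted p up to 0.0309, and the highest value was the one without TNF- replicate 3. Exons of Flicr, a non-coding RNA on the same strand, overlap 18.6% of the Foxp3 exon bases, and those of genes on the other strand overlap 18.7%. The strand setting of the counting is not given in the sources used here, so reads of these stretches cannot be assigned with certainty.

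Ikzf2 (chromosome 1, 69531214 to 69687245) encodes Helios, a zinc finger factor of many thymus-derived regulatory T cells. It had 202, 214 and 125 normalized counts in TNF+ lungs and 141, 94.9 and 96.9 in TNF- lungs. The groups overlapped, because TNF+ replicate 3 lay under TNF- replicate 1. Its log2 fold change of 0.70 (95% interval 0.10 to 1.30) missed the threshold (adjusted p = 0.0574 with edgeR). It passed with DESeq2 (adjusted p = 0.0408), without TNF+ replicate 3 (0.0179) and without TNF- replicate 1 (0.0374). Foxp3 per Ikzf2 count was 1.10, 1.57 and 1.31 in TNF+ lungs and 0.238, 0.394 and 1.06 in TNF- lungs. These ratios did not overlap, although TNF- replicate 3 came close (exact permutation test, two-sided, p = 0.1, the smallest that 3 lungs against 3 allow).

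Il2ra (chromosome 2, 11642807 to 11693193), which encodes CD25, the chain that gives the interleukin-2 receptor its high affinity, had 207, 185 and 129 normalized counts in TNF+ lungs and 68.8, 94.9 and 80.0 in TNF- lungs. Groups were apart, with the smallest spread among TNF- lungs of the genes given so far. It rose 2.13-fold (log2 fold change 1.09, SE 0.23, adjusted p = 0.00593 with edgeR). Icos (chromosome 1, 60977927 to 61000320), a costimulatory receptor of regulatory and follicular helper T cells, had 199, 131 and 94.4 normalized counts in TNF+ lungs and 46.8, 45.0 and 94.2 in TNF- lungs. The lowest TNF+ lung and the highest TNF- lung were nearly equal. Its log2 fold change was 1.18 (SE 0.38, adjusted p = 0.0316 with edgeR), and this call was lost without TNF+ replicate 1 (adjusted p = 0.124), TNF+ replicate 2 (0.0637), TNF- replicate 1 (0.0969) or TNF- replicate 2 (0.103).

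Ctla4 (chromosome 1, 60887000 to 60915832), which lies 62.1 kilobases before Icos, was the most uneven of the receptors. It had 492, 145 and 72.7 normalized counts in TNF+ lungs and 9.56, 32.6 and 63.1 in TNF- lungs. TNF+ replicate 1 was 6.77-fold above TNF+ replicate 3, which stood just above the highest TNF- lung. The log2 fold change of 2.73 had a wide 95% interval of 0.89 to 4.57 (adjusted p = 0.0233 with edgeR). It fell to 1.58 without TNF+ replicate 1 and then missed the threshold (adjusted p = 0.0905), as it did without TNF- replicate 1 (0.0555) or TNF- replicate 2 (0.0761), and with limma-voom (0.0514). Without TNF- replicate 3 it was 3.46. Ctla4 per Foxp3 count was 2.21, 0.429 and 0.445 in TNF+ lungs and 0.286, 0.872 and 0.617 in TNF- lungs. The ranges of that ratio overlapped (exact permutation test, p = 0.7).

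Pdcd1 (chromosome 1, 94038305 to 94052553) encodes PD-1, which dampens signals of the T cell receptor. Its normalized counts were 120.0, 93.1 and 78.4 in TNF+ lungs and 9.56, 23.0 and 41.8 in TNF- lungs. There was no overlap, and the 3.87-fold rise (log2 fold change 1.95, SE 0.45) had an adjusted p of 0.00859 with edgeR. Without TNF- replicate 3 the log2 value was 2.56, and without both first replicates it was 1.36. Tigit (chromosome 16, 43648867 to 43664146), a receptor for the poliovirus receptor family, had 187, 147 and 81.2 normalized counts in TNF+ lungs against 20.1, 15.3 and 38.2. The lowest TNF+ lung was again replicate 3, above every TNF- lung. The rise was 5.57-fold (log2 fold change 2.48, SE 0.42, adjusted p = 0.00195 with edgeR) and passed with any lung left out, with adjusted p up to 0.00953.

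Lag3 and Havcr2 were the most abundant of the 10 genes by mean normalized count. Lag3 (chromosome 6, 124904361 to 124911705), a receptor related to CD4 that binds class II molecules, had 588, 717 and 449 normalized counts in TNF+ lungs and 95.6, 119 and 156 in TNF- lungs. Each TNF+ lung was far above every TNF- lung. It rose 4.72-fold (log2 fold change 2.24, SE 0.24, adjusted p = 0.000178 with edgeR). Havcr2 (chromosome 11, 46454935 to 46481255), which encodes TIM-3, had 578, 562 and 542 normalized counts in TNF+ lungs against 175, 231 and 239. Within TNF+ lungs its highest value was 1.07-fold its lowest, the narrowest spread of the 10 genes. It rose 2.61-fold (log2 fold change 1.38, SE 0.15, adjusted p = 0.000199 with edgeR).

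Il10 (chromosome 1, 131019845 to 131024974), the anti-inflammatory cytokine, had 103, 37 and 83 raw counts in TNF+ lungs and 2, 0 and 5 in TNF- lungs. It thus passed the filter on low counts only through the TNF+ lungs. Summed over lungs, 223 counts stood against 7, a ratio per library total of 36.3 with an exact 95% interval of 17.3 to 91.4, which covers counting error only. The fitted log2 fold change was 5.19 (SE 0.75, adjusted p = 0.000878 with edgeR). TNF- replicate 3 held 5 of the 7 TNF- counts, and without it the fitted value was 6.27, while without both first replicates it was 4.57. The order of the TNF+ lungs for Il10 was not that of Foxp3, since replicate 2 was lowest for Il10 and highest for Foxp3. The 8 macrophage markers were set beside these genes. Their summed level was 3290 to 5160 CPM in TNF+ lungs and 331 to 355 CPM in TNF- lungs, with 7 of 8 called higher (24.0% of all tested genes), 1 (Siglecf) called lower (23.4%) and none under 3 counts throughout. Marco was the most abundant, and the other 7 summed to 1650 to 2000 CPM against 317 to 343 CPM. Their part in the change of Il10 and Havcr2 was not tested.

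The lungs within a genotype differed in the same sense for most of the 10 genes. Among TNF+ lungs, replicate 3 was lowest for 9 genes, Il10 being the exception, and replicate 1 was highest for 7. Among TNF- lungs, replicate 3 was highest for 8 genes, all but Ikzf2 and Il2ra. The Cd3 genes of that lung were also the highest among TNF- lungs, with a sum of 1069 normalized counts for Cd3d, Cd3e and Cd3g against 573 and 722. Per kilobase of merged exons in GENCODE M21, Lag3 was highest in TNF+ lungs (median 9.23 CPM per kilobase), followed by Havcr2 at 6.83 and Tigit at 5.29, and Ikzf2 was lowest at 0.575. The ranges of Lag3 and Havcr2 did not overlap, nor did those of Il2ra and Ikzf2, while all other neighbours in that order overlapped. In TNF- lungs Havcr2 was first (median 2.81 CPM per kilobase) and Lag3 next (1.86), with overlapping ranges, and Il10 was last at 0.0483.

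The next question was how the 10 genes stood against general T cell genes, including the subset markers Cd4, Cd8a and Cd8b1. Of 16 T cell genes, 13 were higher in TNF+ lungs and none lower, against 24.0% and 23.4% of all tested genes. Their median log2 fold change was 0.87, against 2.00 for the 10 genes. Cd3e, the epsilon chain of the receptor complex, did not pass (415, 443 and 409 against 291, 337 and 449 normalized counts, log2 fold change 0.23, adjusted p = 0.291 with edgeR), and neither did Trbc1 and Cd2. Cd3d and Cd3g rose (log2 fold changes 0.86 and 1.13), as did the alpha constant gene Trac (1.16) and the coreceptor genes Cd8a and Cd8b1 (0.86 and 0.88). The call of Cd3d was lost when any single lung other than TNF- replicate 3 was left out. The number called in this list was 8 without TNF+ replicate 1, 6 without TNF+ replicate 2, 6 without TNF- replicate 1 and 7 without TNF- replicate 2.

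**Figure D2:**
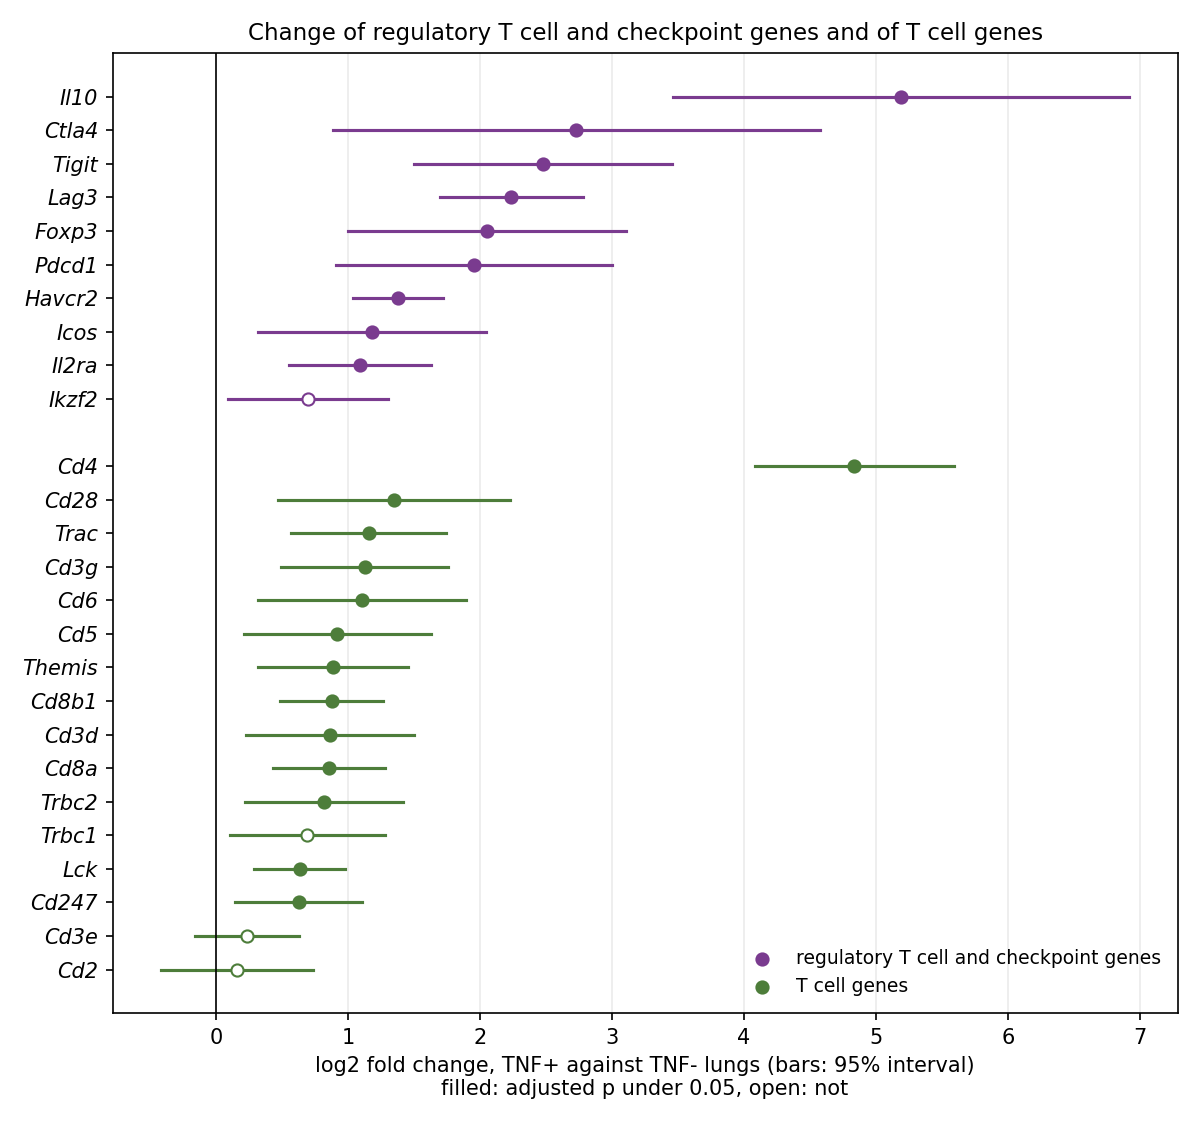
Log2 fold change between TNF+ and TNF- lungs (x axis) with 95% intervals as bars, for the 10 regulatory T cell and checkpoint genes (purple) and 16 T cell genes (green), filled where the adjusted p was under 0.05. Apart from Cd4 at 4.84, no T cell gene has an estimate that reaches 2.00, the median of the purple genes.

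Cd4 was the exception among T cell genes. It had 11700, 12310 and 8082 normalized counts in TNF+ lungs and 279, 287 and 557 in TNF- lungs, a log2 fold change of 4.84 (SE 0.33, adjusted p = 2.15e-05 with edgeR). Cd4 per Cd3e count was 28.2, 27.8 and 19.8 in TNF+ lungs and 0.961, 0.849 and 1.24 in TNF- lungs. The 2 groups of ratios were far apart (exact permutation test, two-sided, p = 0.1, the smallest possible). Some macrophages also express CD4, and 7 of the 8 macrophage markers given above were higher too, Siglecf being lower, but their part in the Cd4 counts was not tested. Cd4 lies 16.1 kilobases from Lag3 on chromosome 6.

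Set against the summed Cd3d, Cd3e and Cd3g counts of the same lung, which cancels library size, 7 of the 10 genes were higher in every TNF+ lung than in any TNF- lung, as were 6.96% of all tested genes on that scale. One of the 7 was Il10, which passed the filter on low counts only through the TNF+ lungs, so it adds no support to this count. Foxp3 counts per 100 Cd3 counts were 17.6, 24.5 and 13.6 in TNF+ lungs and 5.83, 5.18 and 9.56 in TNF- lungs, a 2.71-fold difference of the mean log ratio. For Tigit they were 14.8, 10.7 and 6.78 against 3.50, 2.12 and 3.57 (3.36-fold). For Lag3 they were 46.4, 52.0 and 37.5 against 16.7, 16.5 and 14.6 (2.82-fold). The groups were apart for these genes and likewise for Pdcd1 (2.67-fold), Ctla4 (3.75-fold), Havcr2 (1.57-fold) and Il10. For Ctla4 the margin was small, 6.07 in the lowest TNF+ lung against 5.90 in the highest TNF- lung. The log2 difference of 1.91 for Ctla4 became 1.15 without TNF+ replicate 1, and that of 4.65 for Il10 became 3.74 without TNF- replicate 2. Each of the 7 had an exact two-sided permutation p of 0.1, the smallest possible, and an adjusted p of 0.143 over the 10 genes.

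Il2ra, Icos and Ikzf2 did not separate on this scale. With Cd3e alone as the base Il2ra and Icos did (log2 differences 0.82 and 0.95, exact permutation p = 0.1 each) and Ikzf2 did not (0.43, p = 0.3). Il2ra per 100 Cd3 counts was 16.3, 13.4 and 10.8 in TNF+ lungs and 12.0, 13.1 and 7.48 in TNF- lungs (1.26-fold, exact permutation p = 0.4). Icos per 100 Cd3 counts was 15.7, 9.53 and 7.89 against 8.17, 6.24 and 8.81 (1.37-fold, exact permutation p = 0.3). Ikzf2 per 100 Cd3 counts was 15.9, 15.5 and 10.4 against 24.5, 13.1 and 9.06, and its mean log2 ratio differed by -0.06 (exact permutation p = 1). With Cd4 as the base in place of Cd3, the direction turned for 8 of the 9 genes with a higher mean ratio, all but Il10, for example to a log2 difference of -2.71 for Foxp3.

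**Figure D3:**
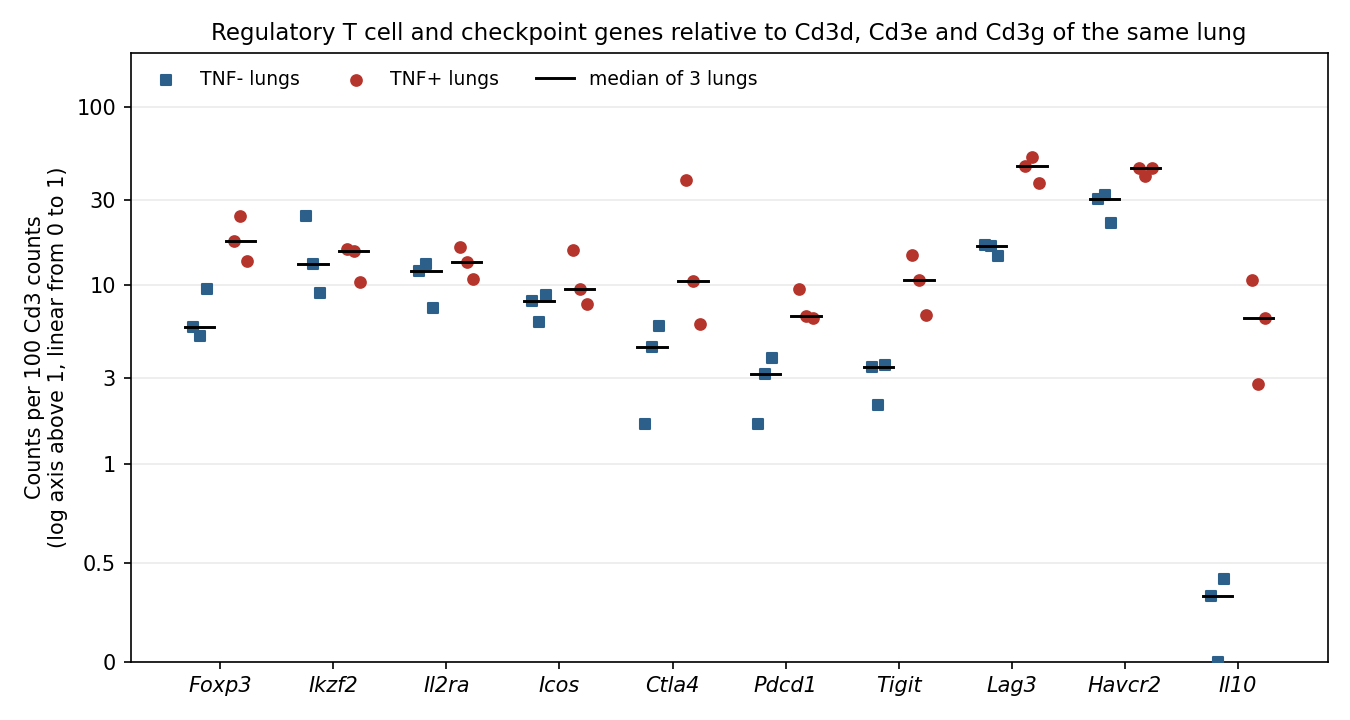
Counts of each gene per 100 counts of Cd3d, Cd3e and Cd3g together in the same lung (y axis, logarithmic above 1 and linear from 0 to 1), with TNF- lungs as blue squares, TNF+ lungs as red circles, in order of replicate from left to right, and group medians as black bars. Ikzf2, Il2ra and Icos overlap between the groups and the other 7 genes do not.

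The ligands of these receptors were examined next. Of 13 ligand genes, 8 were higher and 2 lower in TNF+ lungs, against 24.0% and 23.4% of all tested genes, and the median log2 fold change was 0.65. Both ligands shared by Ctla4 and Cd28 rose. Cd80 had 138, 126 and 208 normalized counts in TNF+ lungs and 42.1, 26.8 and 34.7 in TNF- lungs, a 4.56-fold rise (adjusted p = 0.000468 with edgeR). Cd86 had 566, 455 and 601 against 152, 179 and 204, a 3.03-fold rise (adjusted p = 0.000175 with edgeR). Neither ligand overlapped between the groups. Both ligands of Pdcd1, which lie 22.8 kilobases apart on chromosome 19, rose as well. Cd274 (PD-L1) had 1748, 1298 and 1677 against 423, 409 and 482 normalized counts (3.59-fold). Pdcd1lg2 (PD-L2) had 92.3, 98.2 and 109 against 10.5, 15.3 and 21.3 (6.28-fold). So each ligand of Pdcd1 was high in every TNF+ lung, with Cd274 by far the more abundant in counts.

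The ligands of Tigit and Havcr2 gave mixed values. Pvr, which Tigit binds, was lower in every TNF+ lung (758, 690 and 737 against 1053, 994 and 905 normalized counts, log2 fold change -0.43, adjusted p = 0.00877 with edgeR). Nectin2, another Tigit partner, did not pass (log2 fold change 0.02, 95% interval -0.17 to 0.21). Lgals9 and Ceacam1 bind TIM-3. Lgals9 did not pass (log2 fold change -0.18, 95% interval -0.54 to 0.18), and Ceacam1 fell (log2 fold change -0.51, adjusted p = 0.0262 with edgeR) with overlapping groups, a call lost without replicate 1 or 2 of either genotype. Hmgb1, also a TIM-3 ligand, rose by 0.46 on the log2 scale, a call lost without TNF+ replicate 1 or TNF- replicate 2 and with library totals only. Of the Lag3 partners, Lgals3 rose 5.19-fold and Fgl1 had 12, 50 and 31 raw counts against 4, 5 and 7. Like Il10, Fgl1 passed the filter on low counts only through the TNF+ lungs, so its fitted log2 value of 2.69 (SE 0.52) and its place among the 8 ligands called higher describe a gene that had to differ. The Icos ligand Icosl rose 1.56-fold. Il2 itself had 103, 93.1 and 97.2 normalized counts in TNF+ lungs and 102, 78.6 and 119 in TNF- lungs. Its groups overlapped (log2 fold change -0.03, 95% interval -0.52 to 0.45, adjusted p = 0.906 with edgeR). Dendritic cell markers, beside the macrophage markers, stood at 403 to 501 CPM in TNF+ and 143 to 152 CPM in TNF- lungs. Of these 8 markers, 3 were called higher (24.0% of all tested genes), 1 lower (23.4%) and none had under 3 counts throughout. Most of the gap between the sums was Itgax, which macrophages also express, since the other 7 markers summed to 88.9 to 99.4 CPM against 71.7 to 77.3 CPM. Flt3 (3.37-fold) and Cd209a (3.35-fold) were also higher, Zbtb46, Xcr1, Clec9a and Siglech were not called and Ccr7 was lower. The part of these cells in the ligand values was not tested.

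**Figure D4:**
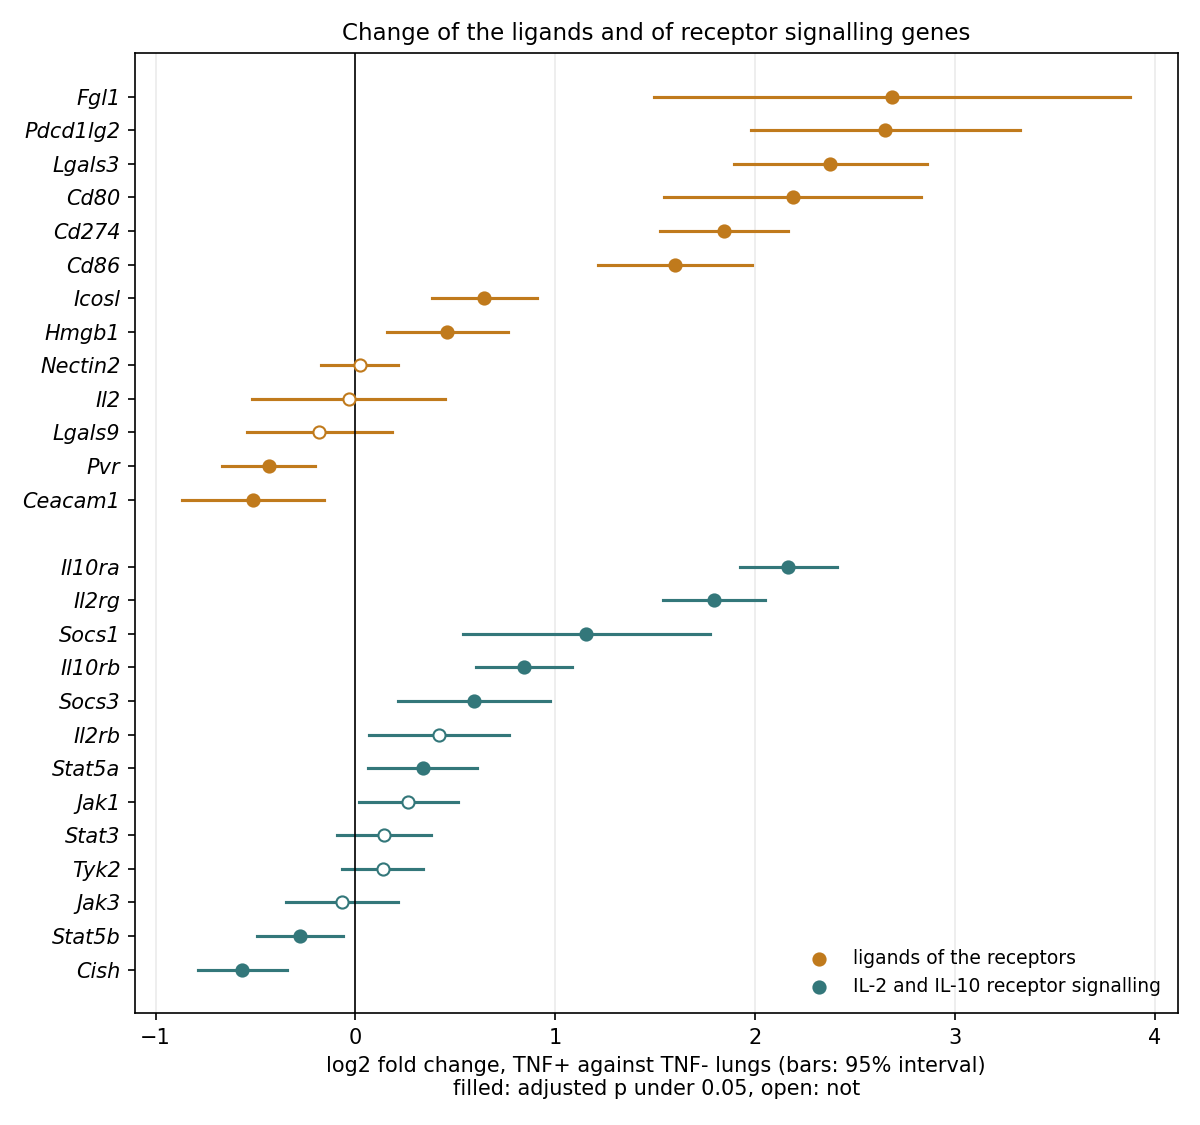
Log2 fold change between TNF+ and TNF- lungs (x axis) with 95% intervals as bars, for 13 ligand genes (orange) and 13 genes of interleukin-2 and interleukin-10 receptor signalling (teal), filled where the adjusted p was under 0.05. Pdcd1lg2 and Cd274 lie far to the right of 0 while Pvr and Ceacam1 lie to its left and Il2 lies at -0.03.

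Among 13 genes of interleukin-2 and interleukin-10 receptor signalling, 6 were higher, 2 lower and 5 not called, against 24.0% higher and 23.4% lower among all tested genes, and the median log2 fold change was 0.34. The 3 genes with the lowest p-values were receptor chains. Il10ra had 3270, 2823 and 3226 normalized counts in TNF+ lungs and 629, 705 and 741 in TNF- lungs (4.49-fold, adjusted p = 5.8e-06 with edgeR). Il10rb rose 1.80-fold, and Il2rg, the chain common to several cytokine receptors, rose 3.47-fold. Most macrophage markers given above were higher too, and the part of these cells in the receptor chain values was not tested. The interleukin-2 receptor beta chain Il2rb did not pass (log2 fold change 0.42, adjusted p = 0.0529 with edgeR). The STAT5-induced inhibitor Cish and Stat5b were lower, by log2 fold changes of -0.57 and -0.28, and the call of Stat5b was lost when any single lung other than TNF- replicate 3 was left out. Without TNF+ replicate 1, TNF- replicate 1 or TNF- replicate 2 the number called fell to 5, and Socs3, Stat5a and Stat5b were the genes lost each time.

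Of 22 further genes known from regulatory T cells, 21 were tested, 12 rose and 4 fell, against 24.0% and 23.4% of all tested genes, and the median log2 fold change was 0.96. By p-value the rise was led by Tnfrsf1b (TNF receptor 2), which had 7248, 6547 and 6629 normalized counts in TNF+ lungs and 1533, 1595 and 1595 in TNF- lungs (4.32-fold). Next came Ebi3, a subunit of interleukins 27 and 35 (8.85-fold), and Tnfrsf9, which encodes 4-1BB (8.02-fold). Tnfrsf18 (GITR) and Tnfrsf4 (OX40), chosen after their values were seen, rose 3.36-fold and 2.79-fold. Lrrc32, which anchors latent TGF-beta, and Nt5e (CD73) fell, by log2 fold changes of -1.22 and -0.94. Many of these genes are not confined to T cells. Gpr83, with 4, 19 and 17 counts against 2, 5 and 7, did not pass the filter on low counts with all 6 lungs. It passed and was called without TNF+ replicate 1. There it entered only through the TNF+ lungs, since no TNF- lung reached the filter, so that call adds no support.

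Of 17 further checkpoint and exhaustion genes, 7 rose, 3 fell and 7 did not pass, where 47.4% of all tested genes were called in either direction. The genes with the lowest p-values were Lair1, a collagen receptor (6.56-fold), Cd200r1 (6.92-fold), the phosphatase Ptpn6 (3.17-fold) and Tnfrsf14, the partner of Btla (2.03-fold). What part macrophages, whose markers are given above, had in these values was not tested. Cd200, the ligand of Cd200r1, fell from 2496, 2765 and 3147 normalized counts in TNF- lungs to 1669, 1883 and 1457 in TNF+ lungs. The nuclear receptor Nr4a3 had 111, 61.0 and 81.2 normalized counts in TNF+ lungs against 288, 188 and 429 and fell by 1.85 on the log2 scale. Tox, a factor of exhausted T cells that was picked out after its values were seen, rose (log2 fold change 1.07, adjusted p = 0.00743 with edgeR). Of 16 helper T cell lineage genes, 9 were tested, of which 3 were called higher and 1 lower, near the 24.0% and 23.4% of all tested genes. Maf (2.26-fold) and the chemokine receptor Cxcr3 (2.85-fold) rose, Il23r had a fitted 3.32-fold difference, and Bcl6, the factor of follicular helper cells, fell by 0.31 on the log2 scale. The call of Bcl6 was lost without replicate 1 or 2 of either genotype, with library totals only and with no filter on low counts. With 9, 7 and 21 counts in TNF- lungs, Il23r reached that filter in only 1 of them, and its pass rested on the TNF+ lungs. The cytokine genes Ifng, Il4, Il5, Il13, Il17a, Il17f and Il21 did not pass the filter. Il21, with 14, 11 and 5 counts against 1, 0 and 0, was called with DESeq2, with no filter and without TNF+ replicate 3 or any single TNF- lung, and Ifng without TNF+ replicate 2. With a lung left out, both genes entered only through TNF+ lungs, since no TNF- lung reached the filter, so those calls add no support.

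Other cells that share some of these genes were checked by their markers. Of 6 natural killer cell markers, 3 fell and 1 rose, and their sum was 17.5 to 19.0 CPM in TNF+ lungs against 34.7 to 49.3 CPM in TNF- lungs. Most of that gap was Gzma, and the other 5 summed to 15.6 to 16.8 CPM against 17.2 to 23.3 CPM, with Ncr1 and Prf1 lower (log2 fold changes -2.22 and -1.23), Eomes higher and Klrb1c and Klrd1 not called. The part of natural killer cells in the Lag3 and Tigit counts was not tested. Of 6 type 2 innate lymphoid cell markers, 3 rose and none fell, at 58.5 to 81.2 CPM against 47.1 to 52.8 CPM. Without Il7r, which T cells also express, the sums overlapped, at 33.3 to 42.4 CPM against 25.6 to 38.1 CPM. Of 6 B cell markers, 3 rose and none fell, at 260 to 265 CPM against 120.0 to 210 CPM. Among all tested genes 24.0% were called higher and 23.4% lower. Thymus in the sample would carry Foxp3 and Ikzf2 transcripts. Of 6 thymocyte markers, 5 did not pass the filter on low counts, and Cd1d1, which other cells also express, was called higher. Rag2 had under 3 counts in every lung. Rag1 had 0 counts in all TNF+ lungs and 9, 1 and 0 in TNF- lungs, and Arpp21 had 2, 2 and 3 against 14, 4 and 3. Dntt had 3, 6 and 7 against 4, 6 and 2, and Ptcra had 0, 3 and 1 against 1, 0 and 0. Rag1 and Arpp21 were thus highest in TNF- replicate 1, and Dntt and Ptcra were not. A part of thymus in these values was not tested.

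By their centred profiles over the 6 lungs, the genes nearest to Foxp3 were Ighv5-12-4, Kcnn4, Dnmt3l, Gm26902 and Gm5547. The distance used depends on the size of a change as well as on its shape. The measure was the root mean square distance of log2 CPM after each gene was centred on its own mean, which was 0.170, 0.229, 0.237, 0.247 and 0.249. Ighv5-12-4, a heavy chain variable gene, is low, at 10, 16 and 10 raw counts against 0, 0 and 4. It passed the filter only through the TNF+ lungs, and its distance rests on the prior count of 2 added before the log. Dnmt3l, with 26, 43 and 31 raw counts against 2, 4 and 14, and Gm26902, with 41, 65 and 51 against 11, 9 and 27, reached the filter in 1 and 2 of the 3 TNF- lungs. Among the other 9 genes described here, Lag3 was nearest at 0.337 (place 24 of 19198 genes), then Tigit at 0.377 (place 45) and Pdcd1 at 0.409 (place 72), and Il10 was farthest at 1.38. These distances are a description over 6 lungs of 2 genotypes.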

How the data were processed

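Whole-lung poly(A) RNA of 3 TNF+ and 3 TNF- mice was measured, one single-end library per mouse. The authors prepared 200 ng of total RNA with a stranded kit and deposited raw counts, whole numbers for each gene symbol, without normalization. Per the submitters' processing notes the tools were Trimmomatic (version 0.36), STAR (version 2.5.2b) and featureCounts, on GRCm38. The strand setting and the annotation of the counting are not given in the sources used here. Each column was matched to its mouse by genotype and number.

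The whole table entered the quasi-likelihood test of edgeR 4.0.16 (in R 4.3.3), which followed filterByExpr and TMM and had genotype as its only term. Benjamini-Hochberg adjustment covered the 19199 genes that passed the filter. The SE of a log2 fold change was derived from F. Ratios to Cd3 used a pseudocount of 0.5 on the log2 scale and exact two-sided permutation tests over lungs. Alternatives were DESeq2 (version 1.42.0), limma-voom (limma version 3.58.1), other scalings, other filters, the replicate number as a block and each lung left out. The programs were tested on simulated counts.

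Library totals of 25396923 to 32529408 limit what can be seen to 3 counts. Positions and exon lengths are from GENCODE M21 (GRCm38), promoters from RefSeq on GRCm38.p6. The patches do not move coordinates. None of the 10 genes shared a 100-base window of transcript with another gene except Foxp3, which shared 10.3% of its windows with Flicr. No library was a repeat of another (chi-square per degree of freedom between replicates 53.7 to 140), so each mouse was counted once.

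The genes and lists were chosen with earlier results of these data known. An item of the T cell list is not reported here and was left out of its counts. Named are the 10 genes, all ligands, up to 4 genes per other list with the lowest p-values among those called, up to 2 in its less frequent direction, genes too low to test, the base genes of the T cell comparison, Tnf and the 5 genes nearest to Foxp3. Exceptions are marked as seen first, apart from genes given only as not called or for a marker list.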

Additional observations from a re-analysis of the deposited data

How the results depend on the processing

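Of 139 alternative values for the log2 fold changes of the 10 genes, 123 kept direction and side of the threshold, 13 lost the threshold, 3 passed it newly (all Ikzf2) and 0 changed sign. The losses were of Ctla4, Icos and Il2ra. The number of the 10 genes called was 10 with DESeq2, 8 with limma-voom, 9 with DESeq2 size factors, with library totals only and with no filter on low counts, and 8 with at least 10 counts in every lung, a filter that removes Il10 and so gives it no value. With each lung left out it was 7 to 10. With both first replicates left out, chosen after seeing the data, it was 6. With the replicate block it was 7. Deviations from the group mean correlated at -0.149, -0.00429 and -0.242 between same-numbered lungs, and at -0.0604 to 0.211 between lungs of unlike number. From 3 lungs per group these values cannot decide whether same-numbered lungs share a litter or batch. The blocked fit lost Ctla4 (adjusted p = 0.0991) and Icos (0.0711) and, in the other lists, Cd28, Cd5, Trbc2, Ceacam1, Stat5a, Stat5b, Ccr8, Izumo1r and Bcl6. With each lung left out, the T cell list ranged from 6 to 15 called and the interleukin signalling list from 5 to 7. With Cd4 in place of Cd3 as the base, 1 of the 10 genes was higher instead of 9, and the log2 differences turned to -2.71 for Foxp3, -3.81 for Il2ra, -3.68 for Icos, -2.24 for Ctla4, -2.73 for Pdcd1, -2.39 for Tigit, -2.65 for Lag3 and -3.50 for Havcr2. That of Ikzf2 turned to 0.43 with Cd3e alone, to 0.14 without TNF+ replicate 3 and to 0.33 without TNF- replicate 1, and it ranged from -0.39 to 0.33 over the lungs left out. The cause was not tested, except that Cd4 itself rose more than each of these 8 genes. At 3 lungs against 3 the permutation tests cannot pass 0.05.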
